A study of Mus musculus with 48 samples.

Results

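The hippocampus of unexposed young adults of CD-1, an outbred stock of mice, was described from 12 of the 48 libraries of the series, which are the 6 male controls and the 6 female controls. They were chosen by their labels alone. Each library is poly(A)-selected, stranded RNA sequencing of the hippocampus of 1 mouse aged 2 months, whose dam received neither lead (Pb) nor manganese (Mn). The other 36 animals came from dams that drank Pb at 100 ppm, Mn at 2 g/L or both for 8 weeks, from before mating until weaning on postnatal day 21. The labels name no altered gene in any group. The labels do not say which animals were littermates, so the spread given here is between animals and may hold litter effects. The 2 control groups were not compared with each other, and every measure of spread was taken after the mean of each group was removed.

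The hippocampus is a folded sheet of cortex in which granule cells of the dentate gyrus project to CA3 pyramidal neurons, and these project to CA1. It is used in memory, spatial navigation and social recognition. CA1 and CA3 pyramidal neurons, granule cells and the mossy cells of the hilus are glutamatergic, and GABA-releasing interneurons are scattered among them. The structure lies against the thalamus and habenula, and the choroid plexus of the lateral ventricle, the epithelium that secretes cerebrospinal fluid, runs along its fimbria. Pia of the meninges covers its surface.

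Depth ranged from 6273586 to 27639841 counts per library, and 14371 genes had a mean of at least 1 CPM, the usual unit of counts scaled to library size. Y-linked Ddx3y was at 31.2 to 41.8 CPM in the 6 male controls and at 0 in the 6 female controls. Some libraries stood apart from the others. Relative to the average library, female control 1 had counts that fell with transcript length, with a slope of -0.259 log2 units per doubling of length against -0.100 to 0.082 in the other 11 animals. Xist, the RNA that coats the inactive X chromosome, was at 18.6 CPM in female control 1 and at 61.2 to 175 CPM in the other females, and at 25 CPM in male control 4 against at most 0.117 CPM in the other males. Where one of these libraries sets a value by a wide margin, the next value is given too.

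Transcripts of the mitochondrial genome stood highest. Levels between genes were compared per length, as normalised CPM per kilobase of exon (CPM per kb). mt-Co1, a subunit of cytochrome c oxidase, ranged from 6184 to 12892 CPM per kb with a median of 9113. mt-Nd1 (4103 to 12144), mt-Cytb (4466 to 10039) and mt-Nd2 (2459 to 8610), all of the respiratory chain, followed in CPM per kb, together with the 2 mitochondrial ribosomal RNAs. Of these 6 transcripts, 5 were highest in female control 1. Without that animal the highest levels were 8589 for mt-Nd1, 8751 for mt-Cytb and 5102 for mt-Nd2 in CPM per kb, and mt-Co1 was highest in female control 3 with female control 1 next. Not all mitochondrial genes were listed as high: mt-Co2 had a median of 13.3 and mt-Co3 of 8.90 CPM per kb. The setting for reads with several matches was not given, so the levels of genes with near-identical nuclear copies are uncertain.

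Outside the mitochondrion, the leading RNA was Bc1, a short noncoding RNA carried into dendrites that represses translation there. Its level ran from 191 to 7077 CPM per kb with a median of 3871. The lowest value, in male control 1, stood apart, since the next lowest animal was at 2389. Bc1 has a single exon of 168 bases, and its rank depends on dividing by that length. Before this step its mean was 652 CPM, against 559 (Rplp1) to 4193 CPM (Ddn) for the protein-coding genes named next. Only Rplp1 of these was lower. The residual SD of Bc1, 1.37 on the log2 scale, was far above the median gene. The protein-coding genes that came next, in the order of their mean levels, were Cst3 (median 1330 CPM per kb), a secreted protease inhibitor, Cpe (1248), which trims peptide hormones, Selenow (1119), a selenoprotein, and Apoe (1089), the lipid carrier released by astrocytes. Then followed Rplp1 of the ribosome (1087), Ddn of dendrites (1148), the elongation factor Eef1a1 (983), the calcium sensor Calm3 (943) and Ncdn of neurites (916), as medians in CPM per kb. The 20 highest genes held 20.3 ± 3.13% (SD, n = 12) of all length-scaled counts, and between 260 and 578 genes made up 50 percent of them. Female control 1 was the most concentrated library, at 26.3% and 260 genes, the next values being 24.5% and 356 genes. The 20-gene share was lowest in female control 5, at 15.9%.

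**Figure D1:**
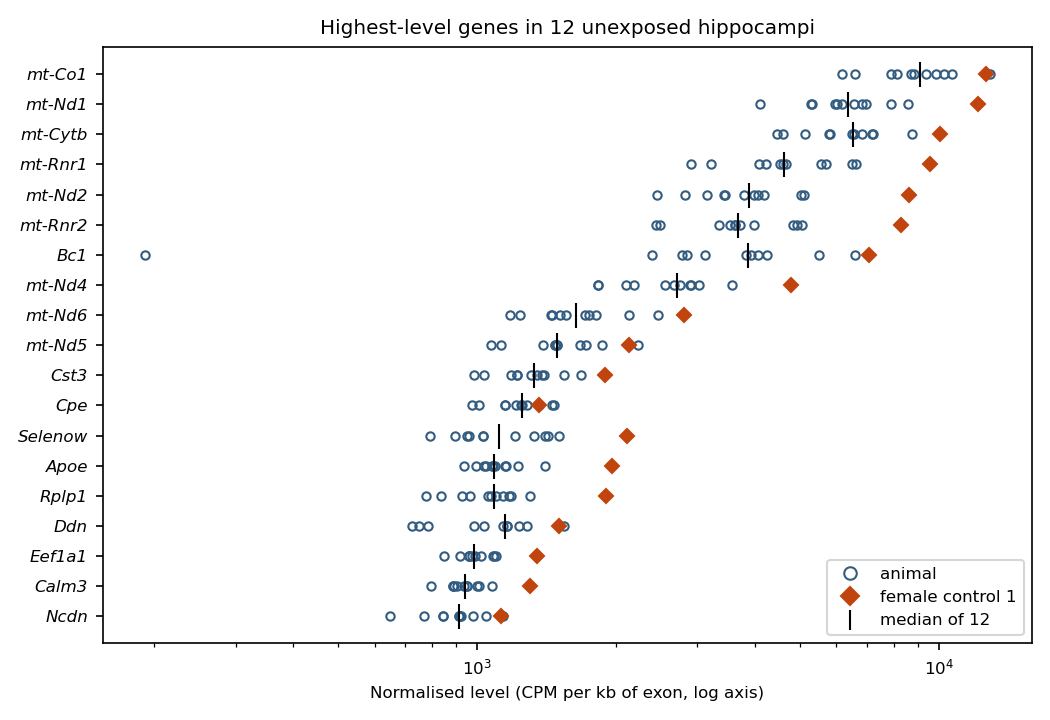
Normalised level in CPM per kb of exon (log axis) of the named genes among the 20 highest, 1 open circle per animal, an orange diamond for female control 1 and a bar for the median of 12. mt-Co1 leads with a median of 9113, and Bc1 has 1 animal at 191 while the other 11 lie between 2389 and 7077.

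Gene families were summed as shares of length-scaled counts, given as mean ± SD over 12 animals. The 13 mitochondrially encoded proteins, 10 of which had a mean of at least 1 CPM, held 11.7 ± 1.96%, the 80 cytosolic ribosomal proteins 3.49 ± 0.38% and the 73 nuclear subunits of the respiratory chain 2.46 ± 0.278%. Genes of the synaptic vesicle and its release held 1.22 ± 0.132%, led by Cplx2, which clamps fusion, and Slc17a7, which loads vesicles with glutamate. The 16 glycolytic genes held 0.986 ± 0.0756%, led by Aldoa and Aldoc. The 3 calmodulin genes, which encode 1 identical protein, held 0.901 ± 0.0582%. Calm3 was at a median of 943 and Calm2 at 779 CPM per kb, and their ranges overlapped. Families of still smaller share were the tubulins (0.572 ± 0.075%), the neuropeptides and granins (0.572 ± 0.0451%), the sodium-potassium pump (0.522 ± 0.0519%) and the metallothioneins (0.19 ± 0.0283%). The G protein beta and gamma subunits moved least, from 0.201% to 0.233% of length-scaled counts.

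Markers of every subfield listed for the hippocampus were detected, and each subfield was read from its list of marker genes. In bulk tissue, fewer cells of a type and less RNA per cell cannot be told apart. The granule cell list of the dentate gyrus summed to between 77.1 and 169 CPM per kb over 12 genes, led by C1ql2 (median 29.2), a synaptic organiser of mossy fibres, Stxbp6 (18.2) and Prox1 (15.0), the transcription factor that sets granule cell identity. Male control 4 was lowest and male control 6 highest, the next lowest sum being 102, and they were also the extremes for Prox1, at 76 and 188 CPM. The CA1 list ranged more widely, from 106 to 282 CPM per kb, led by Mpped1 (median 47.6), Wfs1 (45), a protein of the endoplasmic reticulum, and Spink8 (28.4). It was lowest in male control 5 (106) and female control 5 (122), while the other 10 animals lay between 159 and 282. Lefty1, which the CA1 list also holds, was at 0 to 0.146 CPM and could not be read at this depth.

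The CA3 list was the steadiest of the subfields, at 137 to 179 CPM per kb, led by Bok (median 61.9), a member of the BCL2 family, Spock1 (31.6) and Cpne4 (21.9). The CA2 list summed to 86.5 to 193 CPM per kb. In it Pcp4, which binds calmodulin, reached 97.3 CPM per kb in male control 5 against a median of 37, while Rgs14, a regulator that restrains plasticity in CA2, ran from 16.4 to 35.4. The mossy cell list spanned 11.4 to 93.9 CPM per kb and was carried by Calb2, a calcium buffer, at 13.7 to 154 CPM. Calb2 was highest in female control 5, and its residual SD of 1.14 had an adjusted p of 0.0734 (edgeR). The subiculum list was low and even, at 20.4 to 34.2 CPM per kb. The ventral list, at 17.5 to 59.3 CPM per kb, was lowest in male control 6 and highest in male control 5. Its member Htr2c, a serotonin receptor that the choroid plexus also expresses, was highest in male control 3, at 61.9 CPM. Deviations from the group means had a median correlation between members of 0.04 in the mossy cell list and -0.27 in the CA2 list. It was -0.01 in the CA3 list and 0.76 in the ventral list. The CA2 and ventral sums were highest in male control 5 and the mossy cell sum in female control 5. These animals also led the thalamus and habenula list, described below. The part that neighbouring tissue had in these sums was not tested.

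Markers of cell classes stood at quite different heights. Astrocyte genes summed to 2817 to 5203 CPM per kb, the highest values being in female control 1 (5203) and male control 4 (4255), with the other 10 animals at most at 3846, and with Apoe (median 1089), Glul (609), which makes glutamine, and Clu (368) leading. Mature oligodendrocyte genes summed to 721 to 1655 CPM per kb, with the myelin gene Mobp at a median of 173. Of the 14 oligodendrocyte members, 11 were highest in male control 4 and 13 lowest in male control 6. Without male control 4 the oligodendrocyte sum ended at 1282 CPM per kb. Excitatory neuron genes summed to 994 to 2041 CPM per kb, or 1059 to 1800 without male control 4 and female control 1, led by Nrgn (681), which holds calmodulin in dendrites. The 18 interneuron genes summed to 417 to 745 CPM per kb, led by the neuropeptides Cck (194), Sst (118) and Npy (51.2), with Gad1, which makes GABA, at 25.6.

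Other cell classes had lower median sums. The lists differ in genes and length, so their sums do not rank the cells by number. Microglial genes summed to 217 to 441 CPM per kb, led by C1qa (63.4), of the complement system, and 11 of 14 members were highest in female control 1. Without that animal, whose counts fell most with transcript length, the microglial sum ended at 324 CPM per kb. Endothelial genes summed to 155 to 221 CPM per kb, led by the glucose carrier Slc2a1 (45.3), and mural genes to 57.3 to 107, led by Vtn (38.9). Oligodendrocyte precursors, led by C1ql1 (10.7), summed to 23.5 to 37.4 CPM per kb. The list of newborn neurons and progenitors had the lowest sums of the cell class lists, at 4.93 to 9.68 CPM per kb. In it Sox11 was at a median of 2.83 and Dcx, of migrating neurons, at 0.942. The proliferation gene Mki67 was at 1.28 to 4.10 CPM in all 12 animals.

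Receptors gave a picture of the synapse. Of 16 glutamate receptor genes, Gria1 of the AMPA class was highest, at 123 to 188 CPM per kb, followed by Grik5 of the kainate class (median 56.3) and Grin1, the obligate NMDA subunit (36.7). Of 12 GABA-A receptor genes, Gabra5 led, at 43.2 to 74.1 CPM per kb with a median of 56.2. Gabrd, which forms receptors outside the synapse, ran from 18.1 to 72.3 CPM with a residual SD of 0.58.

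**Figure D2:**
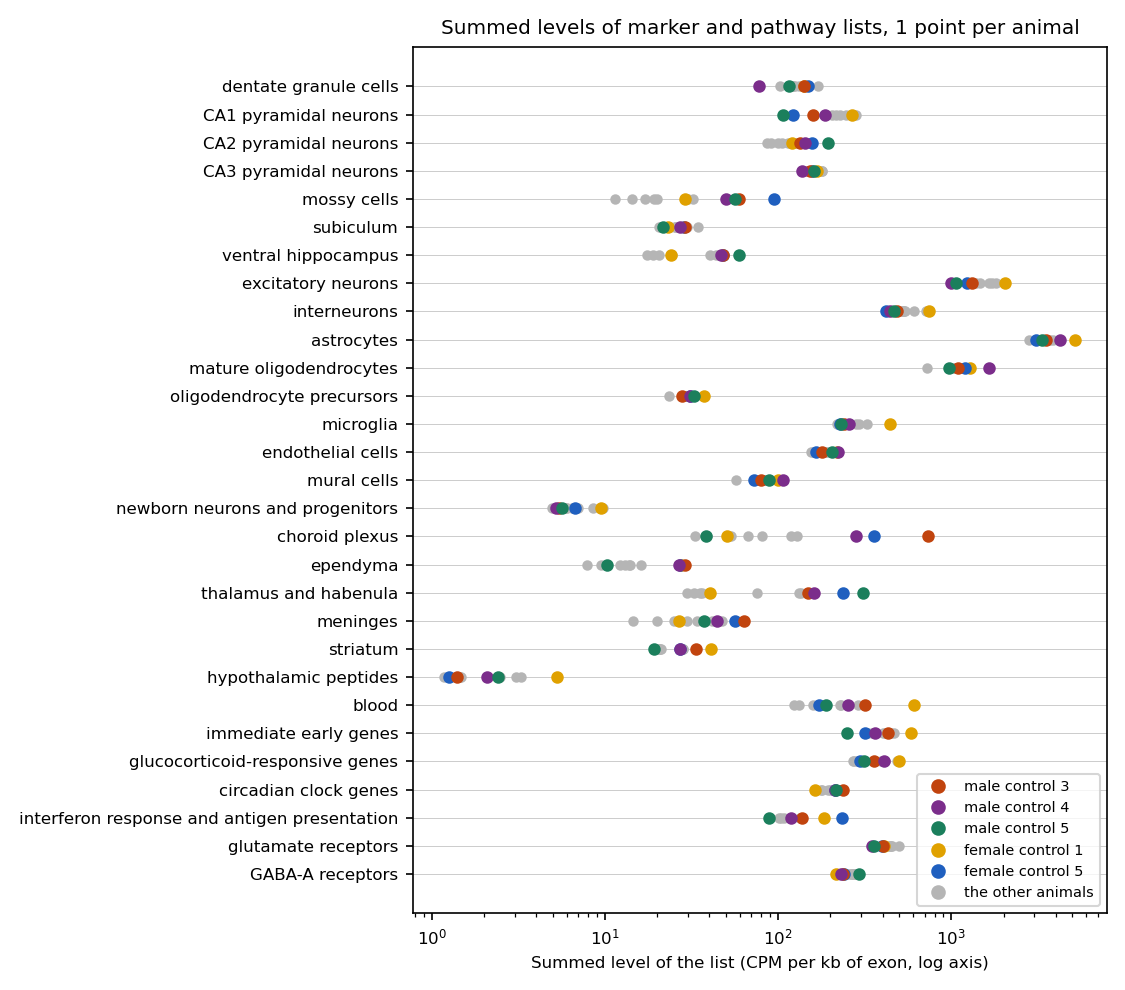
Summed level of each gene list in CPM per kb of exon (log axis), 1 point per animal, with 5 animals in colour and the other 7 in grey. Choroid plexus (33 to 730) and thalamus and habenula (29.8 to 307) spread most widely, while CA3 pyramidal neurons (137 to 179) and endothelial cells (155 to 221) are narrow.

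Most genes varied little between unexposed animals. Spread was measured as the residual SD, the SD of log2 CPM after each group's mean was removed. Its median over 14886 genes was 0.26 on the log2 scale, where counting alone would give a median of 0.09. An SD over 1 was seen for 287 genes (1.93%), and an SD under 0.1 for 326. Genes with a mean under 1 CPM had a median SD of 0.57, against 0.20 between 30 and 100 CPM. In a quasi-likelihood fit with edgeR, 30 of 14886 genes (0.202%) exceeded the trend of spread on level at an adjusted p under 0.05, and 841 (5.65%) did so at an unadjusted p under 0.05. That count moved with single libraries: it was 4 without male control 4 or without male control 6, 6 without female control 2, 9 without female control 3, 18 without male control 5 and 50 without female control 1. DESeq2 marked 247 genes as outliers of its own trend, all 30 among them, while edgeR without the robust step called 0 genes, with 706 at an unadjusted p under 0.05. The sizes of the spread are therefore given first below, and the calls after them. The lists were chosen with earlier results of these data known, so counts within them are descriptions.

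**Figure D3:**
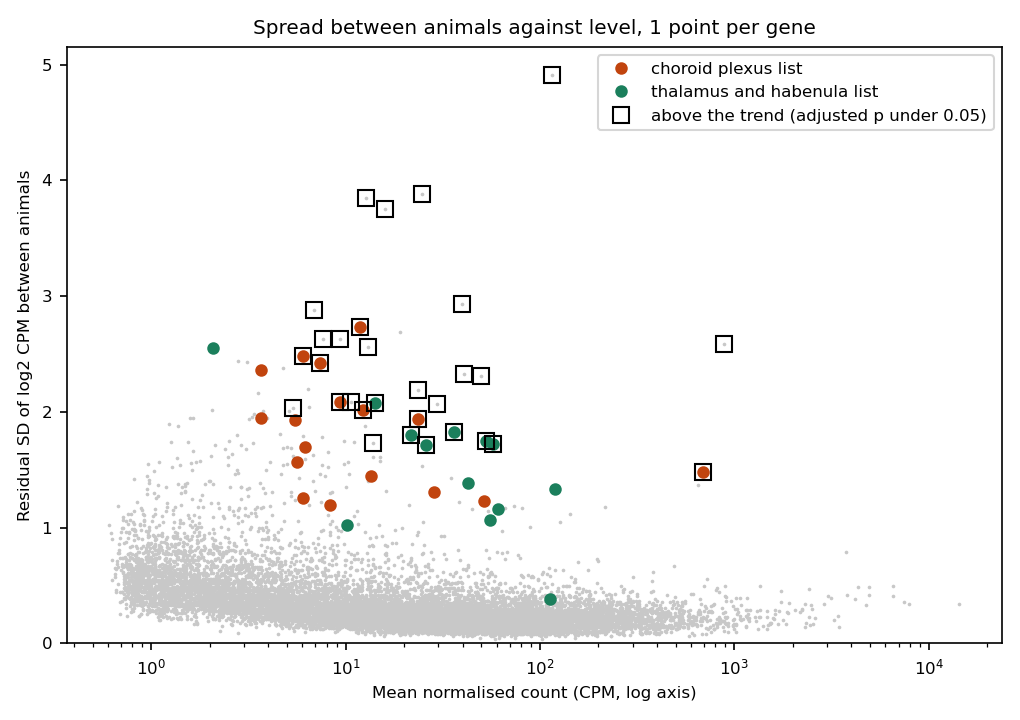
Residual SD of log2 CPM between animals against mean CPM (log axis), 1 grey point for each of 14886 genes, with choroid plexus genes in orange, thalamus and habenula genes in green and black squares around the 30 genes above the trend. All 17 choroid plexus genes tested lie above an SD of 1, whereas the median over all genes is 0.26.

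Genes of the choroid plexus varied most as a group. The 18 genes of this list summed to between 33 CPM per kb in male control 6 and 730 in male control 3, which is 22.1-fold, with a median of 73.6. Female control 5 (358) and male control 4 (281) followed, and the other 9 animals lay between 33 and 128. Of the 18 members, 17 were highest in male control 3. All 17 members that could be tested had a residual SD above 1, with a median of 1.93, and each stood at the 98.8th percentile of all genes or higher. Their deviations moved together, with a median correlation of 0.93 over 136 pairs of genes across the same 12 libraries.

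Tmem72, a membrane protein, ran from 0.169 to 69.2 CPM with a median of 3.43, the highest values being in male control 3 and male control 4. Enpp2, the secreted enzyme autotaxin, which oligodendrocytes express as well, ran from 136 to 3021 CPM with a median of 320. Clic6, of the chloride channel family, ran from 1.10 to 115 CPM, and Folr1, which carries folate into the fluid, from 0.439 to 50.9. Male control 3 was highest for each of these 4 genes. Kcne2, a potassium channel subunit, reached 33.9 CPM in that animal and Slc4a5, a bicarbonate carrier, 32.0. F5, a coagulation factor, reached 56.8 CPM there.

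By the edgeR test, 7 of the 17 choroid plexus genes tested exceeded the trend, against 0.202% of all genes. These were Tmem72 (SD 2.73, adjusted p = 0.0357), Clic6 (1.94, 0.0357), Kcne2 (2.42, 0.0433), Folr1 (2.09, 0.0433), F5 (2.02, 0.0433), Slc4a5 (2.48, 0.0487) and Enpp2 (1.48, 0.04998). All 17 had an unadjusted p under 0.05, beside 5.65% of all genes, and DESeq2 marked all 17, beside 247 of 14886 genes. The median SD of the list stayed between 1.53 and 2.03 whichever animal was left out, being lowest without male control 3. The number called was 0 without female control 2, male control 4 or male control 6, with 17 or 18 members at an unadjusted p under 0.05 in each. It was also 0 by limma or among genes with a mean of at least 1 CPM. The count was 1 without male control 3, 2 without female control 3, 3 without male control 5, 4 without female control 4 and 11 without female control 1.

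Genes of the thalamus and habenula formed the other wide group. The list summed to between 29.8 CPM per kb in male control 1 and 307 in male control 5, which is 10.3-fold. The 5 lowest animals, female controls 1, 2 and 3 and male controls 1 and 6, lay between 29.8 and 40.3. The other 7 lay between 75.4 and 307, with female control 5 second at 235. This order differed from that of the choroid plexus list, in which male control 5 was among the lowest animals, at 38.3. Of the 13 members tested, 12 had an SD above 1, with a median of 1.71, and the median correlation was 0.96 over 78 pairs of genes across the same libraries.

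Slc17a6, the vesicular glutamate transporter of thalamic neurons, ran from 6.74 to 149 CPM with a median of 41.2. Tcf7l2, a transcription factor of the thalamus and habenula, ran from 4.05 to 96.9 CPM, and Zic1, a patterning factor, from 6.15 to 155. Male control 5 and female control 5 held the 2 highest values of each of these 3 genes. Prkcd, a protein kinase C of thalamic relay neurons, ran from 29.3 to 367 CPM. Tnnt1, a troponin, Ramp3, a receptor partner, and Rgs16, which curbs G protein signals, were highest in male control 5 as well, at 56.9, 68.2 and 69.9 CPM. Their lowest values were 0.944, 2.07 and 3.45 CPM.

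Of these 13 genes, 6 exceeded the trend, beside 0.202% of all genes. They were Tnnt1 (SD 2.08), Tcf7l2 (1.83), Ramp3 (1.80), Slc17a6 (1.75), Zic1 (1.72) and Rgs16 (1.71), each with an adjusted p of 0.0433 by the edgeR test. Prkcd (SD 1.33) missed the threshold with an adjusted p of 0.0522. Whichever animal was left out, the median SD of the list lay between 1.60 and 1.81. The number called was 0 without female control 2, female control 3, male control 4 or male control 6, with 12 or 13 members at an unadjusted p under 0.05 in each, and 3 without male control 5. It was 0 among genes with a mean of at least 1 CPM and 3 by limma. Outside the list, Shox2, a homeobox factor, was at 0 CPM in female control 2, male control 1 and male control 6 and reached 53.9 CPM in male control 5, and its SD of 3.75 had an adjusted p of 0.0282. Syt9, a calcium sensor of release, ran from 2.49 CPM in male control 1 to 106 CPM in female control 5 (SD 2.07, adjusted p = 0.0357).

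Among the 150 most variable genes with a mean of at least 1 CPM, 14 belonged to the choroid plexus list, 9 to the thalamus and habenula list and 0 to any of the other 27 lists. A further 43 (28.7%) were pseudogenes or unnamed gene models, which made up 8.2% of all tested genes with a mean of at least 1 CPM. Of these 150 genes, 39 were highest in male control 3, 34 in male control 5 and 33 in female control 5. Male control 6 held the lowest value of 46 and male control 1 of 33.

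Other neighbouring tissues were milder. Meningeal genes summed to 14.4 CPM per kb in female control 3 and 63.5 in male control 3. Male control 3 was also highest for the choroid plexus list, and whether that tissue had a part in the meningeal sum was not tested. The median SD of the meningeal genes was 0.82, and 0 of 13 were called by the edgeR test. Of the 13, 9 had an unadjusted p under 0.05, beside 5.65% of all genes, and DESeq2 marked 4, beside 247 of 14886. Col1a2, a fibrillar collagen chain, ran from 9.95 to 44.3 CPM and was highest in female control 5. Ependymal genes summed to 7.81 to 28.9 CPM per kb, with Foxj1, the factor of motile cilia, at 9.10 to 33.0 CPM. Striatal genes summed to 19.1 to 40.8 CPM per kb, of which Ppp1r1b, which the hippocampus also expresses, gave a median of 21.9. Hypothalamic peptides were near 0, with a summed level of 5.30 CPM per kb in female control 1 and at most 3.27 in the others. Blood genes were highest in female control 1, at 604 CPM per kb against at most 317 in the others, and Hbb-bs of haemoglobin reached 279 CPM there. Their median SD was 0.68, and 0.43 without that animal. Of the 4 blood genes tested, 0 were called, 3 had an unadjusted p under 0.05 by the edgeR test and DESeq2 marked 2. For the 5 ependymal and the 5 striatal genes tested these counts were 0, 2 and 0 each, beside the same shares of all genes.

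**Figure D4:**
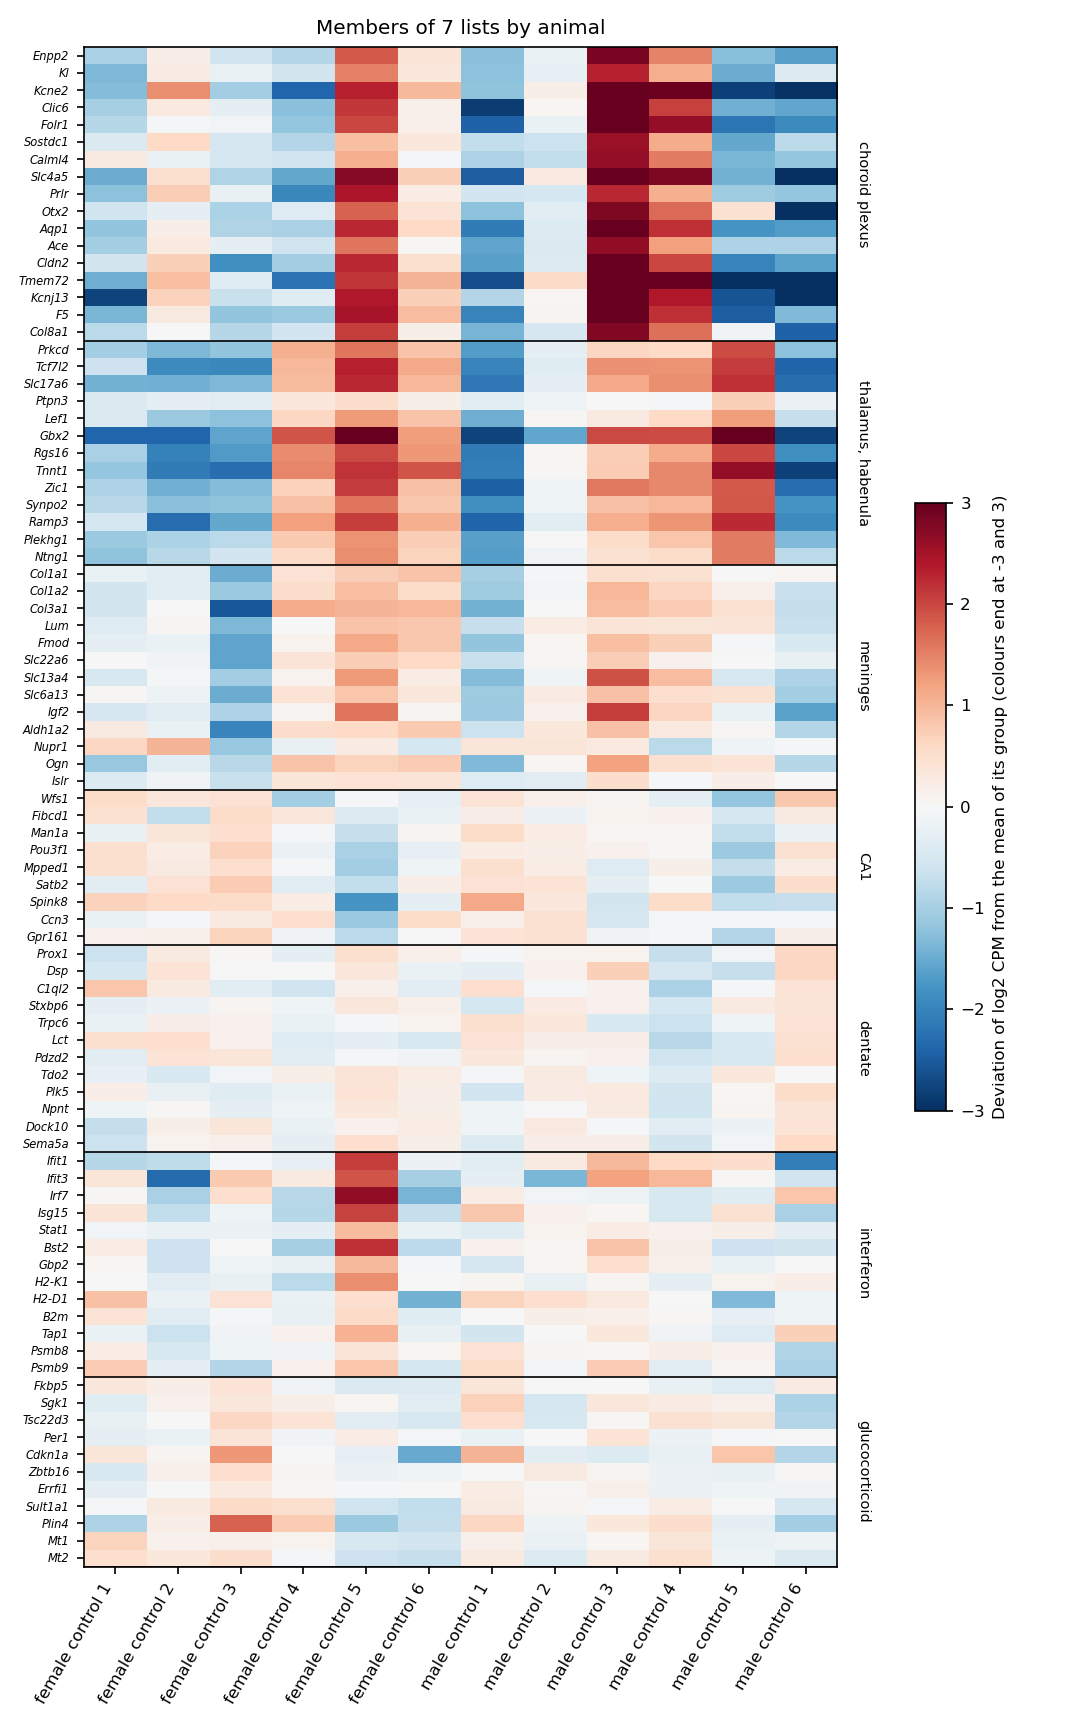
Deviation of log2 CPM from the group mean (colour scale, ending at -3 and 3) of the tested members of 7 lists, with genes in rows and the 12 animals in columns. The choroid plexus block is darkest red in male control 3, the thalamus and habenula block in male control 5 and female control 5, and the interferon block in female control 5.

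In all, 6 pairs of genes were examined for whether they deviated together between animals. The pairs were chosen with earlier results of these data known, and the adjustment over 6 pairs does not cover that choice. Wfs1 of CA1 fell as Prkcd rose, with a Pearson r of -0.83 (permutation p = 0.00153, adjusted p = 0.00918 over 6 pairs) and a Spearman rho of -0.82 (adjusted permutation p = 0.0272) over 12 animals. Without the 2 animals farthest from the median of Wfs1, r was -0.82. It was -0.75 within the female controls and -0.91 within the male controls, 6 animals each. Prkcd was at 29.3 to 40.6 CPM in 5 animals and at 77.3 to 367 in 7, and within these 7 r was -0.63, given with no test. All 9 CA1 genes tested had an unadjusted p under 0.05 for their spread, beside 5.65% of all genes. Of the 9, 0 were called by the edgeR test and 2 were marked by DESeq2, beside 247 of all 14886 genes. The part that neighbouring tissue in the samples had in these values was not tested.

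Enpp2 rose with Col1a2, with a Pearson r of 0.75 (permutation p = 0.00746, adjusted p = 0.0224) and a Spearman rho of 0.74 (adjusted permutation p = 0.0283). This rested in part on single animals. Without the 2 farthest from the median of Enpp2, female control 5 and male control 3, r was 0.57, and the adjusted permutation p passed 0.05 when female control 5, male control 2, male control 3 or male control 6 was left out, with r between 0.68 and 0.75. The r was 0.62 within the female controls and 0.86 within the male controls. The other 4 pairs did not pass after adjustment: Prox1 with Wfs1 (r = 0.30), Prox1 with Prkcd (-0.07), Prkcd with Mobp (-0.17) and Enpp2 with Prkcd (0.42). Without the 2 animals farthest from the median of Prox1, female control 1 and male control 4, its r with Wfs1 was 0.64. Over all animals the dentate marker Prox1 showed no detectable relation to Wfs1 or Prkcd in 12 animals, with adjusted permutation p-values of 0.545 and 0.847.

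**Figure D5:**
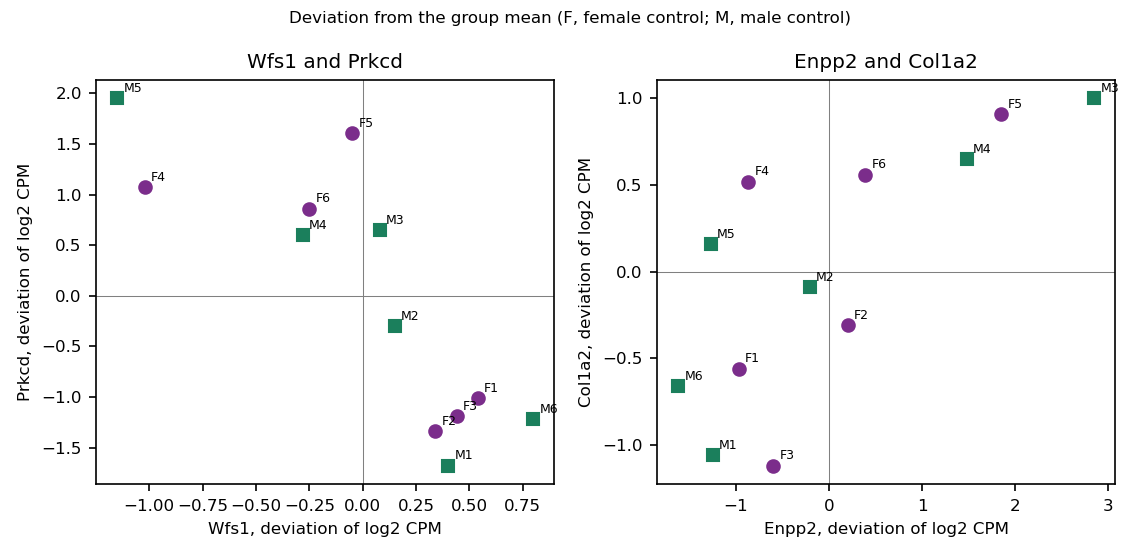
Deviations of log2 CPM from the group mean of Prkcd against Wfs1 (left) and of Col1a2 against Enpp2 (right), with circles for the 6 female controls and squares for the 6 male controls. Prkcd falls as Wfs1 rises (r = -0.83), and Col1a2 rises with Enpp2 (r = 0.75).

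Several called genes belonged to none of the lists. Xist had an SD of 2.31 (adjusted p = 0.0282, edgeR). Its SD was 0.919 without male control 4 and 0.562 without male control 4 and female control 1, and the gene was not called in either case. When both of those animals were omitted, 35 genes were called, 27 of the 30 among them. Tuba1c, an alpha-tubulin, was at 16.7 to 29.4 CPM in 5 animals, female controls 1 and 4 and male controls 1, 3 and 4, and at 0.849 to 3.40 CPM in the other 7, with nothing between (SD 2.09, adjusted p = 0.0433). Its near-identical paralogs may share reads. Cwc22, a splicing factor with copies in the mouse genome, ran from 10.4 CPM in male control 3 and 12.4 in male control 5 to 113 in male control 4, and missed the threshold (SD 1.17, adjusted p = 0.0932).

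Of the 30 called genes, 9 were processed pseudogenes. Rps2-ps13, named here after its values were seen, had the widest spread of all genes (SD 4.91, adjusted p = 0.0237). It was at 125 to 463 CPM in 7 animals, at 16.4 in male control 4 and at 0 to 0.122 in the other 4. The highest value was in female control 1, and the next was 188 CPM. Rps3a3, likewise named after its values were seen, was at 41.4 to 58.2 CPM in 6 animals and at 0.0732 to 0.681 in the other 6. Pseudogenes of ribosomal protein genes can share reads with their parents, so these levels are uncertain.

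Interferon genes were highest in a single animal. In the interferon response, a signal from infected or stressed cells switches on antiviral genes through an element in their promoters that reads GAAA, any 2 bases and GAAA, bound by the IRF factors. Of the 15 genes of the list, 14 were highest in female control 5, and H2-D1, a classical MHC class I gene, was highest in female control 1. The summed level was 234 CPM per kb in female control 5, 183 in female control 1 and 88.9 to 138 in the other 10. Irf7, the factor that amplifies the response, was at 17.7 CPM in female control 5 and at most 3.87 in the others. Bst2, which tethers budding virus, was at 18.5 against at most 5.13 CPM, and Ifit1, which binds viral RNA, at 9.02 against at most 2.34. Ifit3, a partner of Ifit1, was at 16.9 against at most 8.64 CPM, and Isg15, a ubiquitin-like protein, at 6.33 against at most 2.05.

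Of the 13 interferon genes that could be tested, 0 exceeded the trend by the edgeR test. An unadjusted p under 0.05 was seen for 7, beside 5.65% of all genes, and DESeq2 marked 3, beside 247 of 14886. The median SD of the 13 was 0.66, and 0.54 without female control 5. The same animal was second highest for the choroid plexus list and for the thalamus and habenula list, and whether either had a part in the interferon levels was not tested. Its microglial sum was the second lowest, at 228 CPM per kb.

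The RefSeq promoter windows (GRCm38.p6, from 250 bases before to 50 after each gene's start) were searched for these letters on both strands, a match on the reverse strand reading TTTC, any 2 bases and TTTC. Of the 15 genes, 13 had a window, and 7 of these 13 held at least 1 match, while 3.44% of all 32851 windows did. The windows of the 3 genes with a match whose spread was largest are shown, each on its gene's own strand, with the matched letters in capitals.
Ifit3, chr19:34583279-34583578, plus strand: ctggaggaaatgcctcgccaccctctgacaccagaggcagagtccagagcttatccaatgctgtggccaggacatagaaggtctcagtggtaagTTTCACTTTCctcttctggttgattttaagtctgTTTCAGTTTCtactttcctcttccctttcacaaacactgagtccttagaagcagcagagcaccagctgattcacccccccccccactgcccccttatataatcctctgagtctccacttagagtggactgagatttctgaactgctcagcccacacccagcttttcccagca
Ifit1, chr19:34640639-34640938, plus strand: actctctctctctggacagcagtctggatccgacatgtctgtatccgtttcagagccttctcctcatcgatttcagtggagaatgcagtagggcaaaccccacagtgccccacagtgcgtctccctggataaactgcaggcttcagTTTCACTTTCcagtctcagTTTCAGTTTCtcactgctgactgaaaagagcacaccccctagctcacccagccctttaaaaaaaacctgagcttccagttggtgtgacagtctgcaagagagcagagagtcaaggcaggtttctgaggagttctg
Bst2, chr8:71537423-71537722, minus strand: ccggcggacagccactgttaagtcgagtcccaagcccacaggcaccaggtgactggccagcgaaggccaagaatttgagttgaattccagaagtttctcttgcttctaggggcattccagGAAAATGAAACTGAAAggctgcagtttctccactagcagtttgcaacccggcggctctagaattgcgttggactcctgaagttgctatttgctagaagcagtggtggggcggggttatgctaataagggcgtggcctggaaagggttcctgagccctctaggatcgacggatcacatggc
The Ifit3 and Ifit1 windows each held 2 matches on the reverse strand, and the first began 156 and 104 bases before the start. In Bst2 the 2 matches lay on the gene's strand and overlapped, beginning 130 bases before the start. The Irf7 window held 0 matches, which says only that these letters are not in that window.

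Lists of genes that respond to neuronal firing or to glucocorticoids also differed between animals, without calls. Neither firing nor the hormone was measured. Immediate early genes, which neurons switch on within minutes of firing, summed to 249 CPM per kb in male control 5 and 584 in female control 1, with 469 as the next highest. Of the 20 members, 9 were lowest in male control 5, and Arc, which acts at active synapses, ran from 157 CPM there to 764 in female control 1, with 493 as the next highest. Of the 20, 0 were called by the edgeR test and 11 had an unadjusted p under 0.05, beside 5.65% of all genes. DESeq2 marked 2 of the 20, beside 247 of all 14886 genes. Male control 5 was also lowest for the CA1 list (106 CPM per kb) and highest for the thalamus and habenula list (307). Whether neighbouring tissue had a part in its low sum was not tested. Female control 1 was the library whose counts fell most with transcript length. Glucocorticoid-responsive genes summed to 270 to 498 CPM per kb. Plin4, a lipid droplet protein, stood at 45.8 CPM in female control 3 against at most 22.8 in the others, and Cdkn1a, a brake on the cell cycle, at 43.5 against at most 22.6. Of these 11 genes, 0 were called, with 5 at an unadjusted p under 0.05 and 2 marked by DESeq2, beside the same shares of all genes. Clock genes were even as a sum, at 162 to 236 CPM per kb, led by Tef, which had an SD of 0.11, with Nr1d1 at 35.0 to 96.6 CPM. The widest of the 14 was Ciart, with an SD of 0.54. By the edgeR test 0 were called, and 4 had an unadjusted p under 0.05, beside 5.65% of all genes.

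The steadiest genes came close to counting error. Among genes with a mean of at least 10 CPM, the 10 of smallest spread were Dcaf12, Armcx2, Rnf4, Rab5b, Dnajc14, Gfm1, Ank, Aggf1, Fam20b and Ppm1a, with residual SDs of 0.04 to 0.06. They were picked as the lowest in these same libraries, and in the exposed animals their SDs ran from 0.06 to 0.14. Dcaf12, an adaptor of a ubiquitin ligase, stayed between 54.7 and 61.5 CPM in all 12 animals. Rab5b, a GTPase of early endosomes, stayed between 144 and 159 CPM. The SD was 0.21 for Calm2 and 0.18 for Calm3, both under the median gene.

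The spread was then read in the 36 exposed animals, which the measure above had not used, after the mean of each of their 6 groups was removed. There 3 of 16163 genes (0.0186%) exceeded the trend, and all 3 were among the 30, namely the pseudogenes Rps2-ps13, Rps3a3 and Rpsa-ps10, the last named after its values were seen. All 30 control genes had an unadjusted p under 0.05 in the exposed animals, beside 5.33% of all genes there. Their ratios to the trend were at or above its 99.6th percentile. Of the 100 genes of largest SD in each set of animals, 78 were shared. These were drawn from 14346 genes tested in both sets with a mean of at least 1 CPM in controls. Among choroid plexus genes, the SD of Tmem72 was 2.73 in controls and 2.24 in exposed animals, and that of Enpp2 1.48 and 1.21. For Slc17a6 these values were 1.75 and 1.19, and for Shox2 3.75 and 2.74. Across 14885 genes, which are not independent replicates, the SDs of the 2 sets had a Spearman correlation of 0.79, given as a description.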

How the data were processed

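RNA of hippocampus from 48 mice was sequenced, and the 12 control libraries were analysed, with the 36 exposed ones used to read the spread again. The authors deposited whole-number counts per gene, made with Trim Galore 0.6.9, STAR 2.7.10b and featureCounts 2.0.6 on GRCm39, per the submitters' processing notes. Strand and multi-match settings are not given in the sources used here. Names and exon lengths came from GENCODE M21 (GRCm38), which matched 51884 of 57126 gene IDs and 99.52% of counts, and its coordinates were not used. Counts were scaled by TMM in edgeR 4.0.16 (R 4.3.3). Levels are CPM per kb of exon, and spread is the residual SD of log2 CPM with a prior count of 2. Each gene's quasi-dispersion was tested against its trend by an upper-tail F test with Benjamini-Hochberg adjustment over 14886 genes and a threshold of 0.05. Lists were described by counts and medians, with no set test. The code was tested on simulated data. Correlations used 100000 permutations within groups. Alternatives were limma 3.58.1, DESeq2 1.42.0, other scaling, filters, covariates and left-out animals. Depth was 6273586 to 27639841 counts per library, so genes under 1 CPM rest on few counts. The tests treated the animals as independent. Since the labels do not say which animals share a litter, this could not be checked, and the spread may hold litter effects.

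Members, lists and pairs were chosen with earlier results of these data known. Genes named are the 20 highest, the called genes, the 10 steadiest, and for each list its 3 highest members and its most variable one. Bst2, Ifit1, Irf7, Isg15, Cdkn1a, Gabrd, Gad1, Mki67, Nr1d1, mt-Co2, mt-Co3 and 3 pseudogenes were named after their values were seen. Some genes are counted but not reported here.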

Additional observations from a re-analysis of the deposited data

Results flagged for a closer look

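In groups of 6 animals, 96 sets of values were examined for a single animal far from the others. Such an animal was found in 4 of the 96 sets, where chance gives about 1 in 20 sets. The number found is no more than chance alone would give, so the 4 are listed as descriptions. The slope of counts on transcript length was -0.259 in female control 1 and between -0.030 and 0.077 in the other 5 female controls. The summed level of microglial genes was 441 CPM per kb in female control 1 and between 217 and 280 in the other 5. With the length slope as a covariate, the median residual SD of microglial genes went from 0.34 to 0.23. Over all genes it went from 0.26 to 0.21. The number of microglial genes at an unadjusted p under 0.05 by the edgeR test went from 3 to 0. The summed level of astrocyte genes was 4255 CPM per kb in male control 4 and between 3345 and 3631 in the other 5 male controls. Xist was at 25 CPM in male control 4 and between 0 and 0.117 CPM in the other 5, while Ddx3y there, at 31.5 CPM, lay within the range of the male controls. The causes were not tested.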

How the results depend on the processing

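The 30 genes above the trend became 741 with no filter on low counts, 7 at a mean CPM of at least 1, 13 by limma, 0 without the robust step (706 at an unadjusted p under 0.05), 55 with the length slope as a covariate, 66 at a threshold of 0.10 and 247 by DESeq2. Leaving out 1 animal gave 4 to 50, and other size factors gave 27. With the replicate number as a block, 103 genes were called, 28 of the 30 among them, with 17 of the choroid plexus list, 9 of the thalamus and habenula list, 3 of the meninges list and 1 each of the mossy cell, ventral, interferon, ependyma and blood lists. The block took the median SD of the CA1 list from 0.52 to 0.33. Same-numbered animals of the groups had correlations of deviations of -0.16 to 0.41, with 4 of 6 above 0.1, and 1 of 6 numbers matched best with its own, and the animals were treated as sharing only a number. Of the 17 named genes, 0 stayed called without male control 4 or male control 6, and 17 with no filter, with the block or by DESeq2. The 3 genes also called in exposed animals became 44 with the length covariate. The share of the 20 highest genes, 20.3%, was 17.1% by longest transcript and 9.25% without mitochondrial genes. The correlation of Enpp2 with Prkcd ranged from 0.29 to 0.69 on leaving out 1 animal, passing without male control 5. That of Enpp2 with Col1a2 ranged from 0.68 to 0.83 and was 0.70, no longer past the threshold, without female control 1 and male control 4, an omission chosen after seeing the data. Wfs1 with Prkcd kept its sign and call in all 16 alternatives. The causes were not tested. Depth limits genes under 1 CPM, whose median SD was 0.57.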
